A study of Mus musculus with 6 samples.

Results

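The CpGs around Bdnf and Nr3c1 were described in reduced representation bisulfite sequencing (RRBS) of mouse neocortex, an assay that cuts DNA at CCGG with MspI and reads cytosine methylation in the resulting fragments. The members were the CpGs, both strands added, with at least 10 reads in at least 2 samples of each genotype inside chr2:109495000-109565000 for Bdnf and chr18:39535000-39635000 for Nr3c1 (build mm39). This gave 207 CpGs, 126 at Bdnf and 81 at Nr3c1, of 864621 autosomal CpGs that met the same coverage rule. All 6 samples were neocortex from postnatal day 5, with 3 labelled WT (wild type) and 3 labelled Chd8+/- (heterozygous for the chromatin remodeller gene Chd8). Strain, sex, the Chd8 allele and whether a sample was 1 animal or a pool are not given in the sources used here. The labels do not state that the samples of a genotype came from separate animals, so p-values measure how much these samples vary, which may be partly technical. The tissue was not checked from the methylation levels, and Chd8 itself was not used to check the genotypes.

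BDNF is a secreted neurotrophin that acts through the receptor TrkB on neuronal survival, dendrite growth and synaptic plasticity. Its gene has several alternative 5′ exons, each with its own promoter and spliced to a common 3′ exon that holds the coding sequence, and some of these promoters respond to neuronal activity. Nr3c1 encodes the glucocorticoid receptor, a nuclear receptor for corticosterone. Several of its untranslated first exons lie together in a CpG island, and it is transcribed towards lower coordinates. Methylation of both promoter regions has been much studied in brain in relation to early life stress.

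RefSeq lists 7 transcription starts for Bdnf in the promoter table used here, which follows build GRCm38.p6, and they are numbered 1 to 7 along the gene. Their promoter sequences were placed among the mm39 CpGs by the spacing of the CpGs alone, with no conversion of coordinates. Starts 1, 4 and 5 found a place at which every listed CpG of the window coincided with a CpG of the sequence, with 4, 5 and 11 CpGs matched. At start 5 the next best place in the genome matched 5 CpGs. At the other placed starts a place elsewhere in the genome matched as many CpGs, 4 and 5, so these placements also rest on the interval. The placed starts stood 19709 and 1382 bp before start 5, the same distances as in the table. The 250 bases before each placed start are shown because they hold the CpGs that report on an annotated Bdnf promoter. Capitals mark CpGs that were listed in at least 1 library.
Bdnf start 1: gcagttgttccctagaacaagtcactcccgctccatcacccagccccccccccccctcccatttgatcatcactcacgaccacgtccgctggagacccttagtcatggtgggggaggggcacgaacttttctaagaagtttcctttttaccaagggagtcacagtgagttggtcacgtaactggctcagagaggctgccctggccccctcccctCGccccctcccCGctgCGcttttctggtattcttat
Bdnf start 4: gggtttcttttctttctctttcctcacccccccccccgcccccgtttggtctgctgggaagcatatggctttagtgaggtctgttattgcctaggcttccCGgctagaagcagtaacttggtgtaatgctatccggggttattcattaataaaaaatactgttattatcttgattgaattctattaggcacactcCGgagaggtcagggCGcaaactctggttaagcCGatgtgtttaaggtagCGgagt
Bdnf start 5: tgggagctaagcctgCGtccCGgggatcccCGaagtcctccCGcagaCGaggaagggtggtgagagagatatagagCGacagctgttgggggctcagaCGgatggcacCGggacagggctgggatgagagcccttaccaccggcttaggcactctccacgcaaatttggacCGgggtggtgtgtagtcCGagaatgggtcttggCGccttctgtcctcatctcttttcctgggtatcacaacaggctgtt
These windows held 9, 8 and 13 CpGs, of which 3, 5 and 11 were listed. The MspI site CCGG occurred 3 and 4 times in the windows of starts 4 and 5 and not in that of start 1. The full promoter sequences of starts 1, 4 and 5, which run 50 bases past the start, held 1, 3 and 4 such sites. Of 32851 promoter sequences in the table, each 300 bases long, 52.8% held CCGG. Starts 2, 3, 6 and 7 were not placed, and their promoters were not analysed here. The table sets start 2 at 2332 bp past start 1, and start 3 at 1973 bp before start 5. By these GRCm38.p6 distances, the first members after them lie 2428 bp past start 1 and 1912 bp before start 5. This order is inferred from distance and was not read from an mm39 annotation. The sequence of start 3 held 12 CpGs and no CCGG. It was the only one of the 7 that held the letters TCACGTCA, a variant of the cAMP response element motif, searched on both strands. This motif was found in 0.441% of all promoter sequences in the table.

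The libraries held 953724 to 1400708 listed cytosines, with a median coverage of 20 to 24 reads per cytosine. Summed coverage was 45498222 to 54818138 reads in WT and 32285980 to 39820333 in Chd8+/-, so the WT libraries were deeper. Cytosines outside CpGs were read as unconverted at 0.316% to 0.348%. The share of coverage on chromosome X was 2.58% and 2.56% in replicate 3 of WT and of Chd8+/-, against 1.18% to 1.21% in the other 4 libraries. Differences were therefore also taken within these classes of library.

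At Bdnf, methylation was low over the whole measured 5′ region and high downstream. The 120 members from 109503908 to 109526015, a span of 22107 bp, had mean levels from 0% to 7.58% over the 6 samples. No methylated read was found at 64 of them. Pooled over the 101 of them covered in all 6 samples, the WT samples had 1.38%, 0.897% and 1.497%, and the Chd8+/- samples 0.701%, 1.02% and 0.969%. The means were 1.26% ± 0.317 in WT and 0.897% ± 0.172 in Chd8+/- (SD, n = 3 each, exact two-sided permutation p = 0.3, where 0.1 is the smallest possible). WT replicate 2 lay below the highest Chd8+/- sample, so the genotypes overlapped. The remaining 6 members, 13619 to 29511 bp past placed start 5, had means of 67.9% to 100%. Not one Bdnf member had a mean between 10% and 60%.

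**Figure D1:**
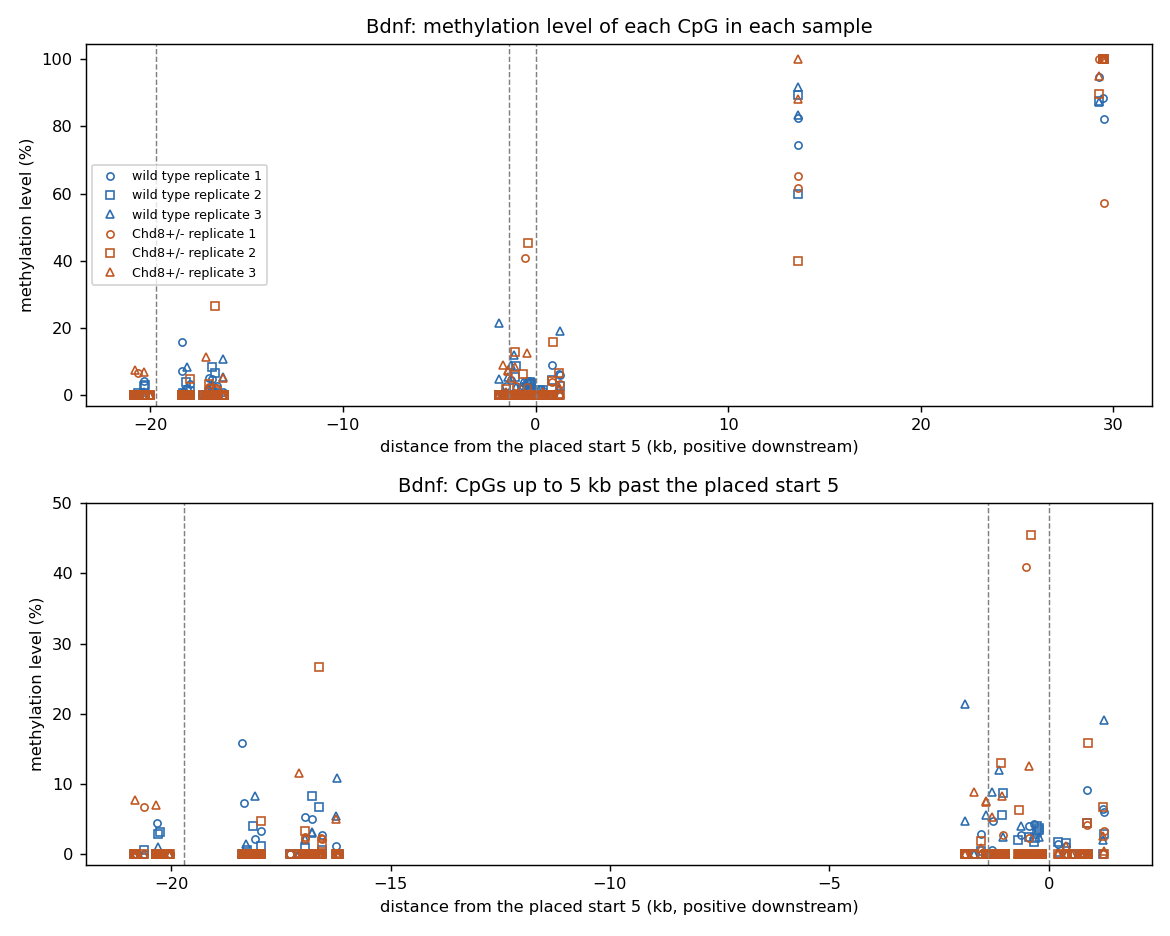
Methylation level (%) of each Bdnf CpG in each sample against its distance from placed start 5 (kb), with dashed lines at the placed starts 1, 4 and 5; the lower panel enlarges the 5′ region. Nearly all points up to 1261 bp past start 5 lie near 0%, 4 single-sample values there lie above 20%, and the 6 downstream CpGs lie high in samples of both genotypes.

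The low 5′ region fell into 2 parts, separated by 14272 bp without a member. The part around and after start 1 held 54 CpGs in 4 groups. The part around starts 4 and 5 held 66. A cluster, as used here, is a run of at least 3 CpGs that were covered in all 6 samples and lay at most 300 bp apart, and Bdnf had 7, numbered along the gene.

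Cluster 1 (chr2:109503908-109504500, 12 CpGs), 1137 to 546 bp before placed start 1, had levels of 0.336%, 0.688% and 0.165% in WT and 0.669%, 0% and 1.05% in Chd8+/-. The Chd8+/- samples included both the lowest and the highest value. No member lay in the window from 250 bp before to 50 bp after start 1. Its listed CpGs had 2 methylated of 124 reads in WT replicate 1, 0 of 141 and 0 of 157 in the other WT samples, 0 of 53 in Chd8+/- replicate 1, and no reads listed in the other Chd8+/- samples. The 53 reads were summed over 4 CpGs with 13 or 14 reads each, so 1 sequenced read may be counted at several CpGs. Taken as independent, 0 of 53 allow a level of up to 5.66%, and the limit is higher where reads are shared. This promoter therefore cannot be compared between genotypes at this depth.

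Cluster 2 (chr2:109506374-109506804, 13 CpGs), 1329 to 1758 bp past start 1, had the smallest p of the 7 Bdnf clusters. Its levels were 2.28%, 0.213% and 1.15% in WT and 0%, 0.532% and 0% in Chd8+/-. The difference was -1.04 points (SE 0.625), with an edgeR p of 0.0819 and an adjusted p of 1.00 over all clusters. WT replicate 2 lay below Chd8+/- replicate 2, so the groups overlapped here too. Clusters 3 (chr2:109507661-109508196, 14 CpGs) and 4 (chr2:109508521-109508571, 5 CpGs) averaged 0.482% ± 0.326 and 1.19% ± 1.87 in WT. They averaged 1.03% ± 0.560 and 0.350% ± 0.606 in Chd8+/- (SD, n = 3 each). The WT mean of cluster 4 came mainly from replicate 3, at 3.35%, with the other WT samples at 0.222% and 0%.

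Cluster 5 (chr2:109522842-109523724, 18 CpGs) spans placed start 4, from 530 bp before it to 351 bp after it. Its levels were 1.05%, 0.958% and 2.35% in WT and 0.174%, 0.583% and 2.68% in Chd8+/-. Replicate 3, the library with the higher chromosome X share, was the highest of each genotype. Within the promoter window printed above for start 4, 4 of 355, 1 of 433 and 3 of 430 reads were methylated in WT. In Chd8+/- the counts were 0 of 338, 3 of 364 and 9 of 321, or 2.80% in replicate 3.

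Cluster 6 (chr2:109524118-109524613, 26 CpGs) ends 142 bp before placed start 5 and had the most CpGs of the 7. Its levels were 0.790%, 1.22% and 0.404% in WT and 1.09%, 0.640% and 0.703% in Chd8+/-. The mean difference was 0.00776 points (SE 0.275), smaller than the spread within either genotype. In the printed window of start 5, 0 of 354, 9 of 639 and 2 of 332 reads were methylated in WT, and 0 of 265, 0 of 310 and 0 of 258 in Chd8+/-. Those zeros allow levels of up to 0.847% in WT replicate 1 and 1.13%, 0.968% and 1.16% in Chd8+/-, limits that cover counting error only. They also take reads summed over neighbouring CpGs as independent, so they are too low where 1 sequenced read covers several CpGs. Cluster 7 (chr2:109524962-109525653, 11 CpGs), 208 to 898 bp past that start, averaged 1.07% ± 0.856 in WT and 0.633% ± 0.659 in Chd8+/- (SD, n = 3 each).

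The low level extended to CpGs outside islands. An island CpG was defined as one with more than 20 listed CpGs within 250 bp on either side, itself included. By this count 44 Bdnf members lay in islands, with 85 methylated of 11091 reads (0.766%). The sparsest class, with 1 to 5 listed CpGs in that window, held 19 Bdnf members, 13 of them under 10% and 5 over 80%. Those under 10% were the 13 of the 5′ region, with a median level of 0.794% and a highest level of 5.30%. The rest of the class were the high downstream members, so the 5′ values are low partly by the choice of region. All 406099 autosomal CpGs of that density had a median of 82.9%, with 7.74% of them under 10%. All 18 Bdnf CpGs with 6 to 10 neighbours were under 10%, against 26.3% of all CpGs of that density. These neighbouring CpGs share reads and are not independent. CpG 109525169, 415 bp past start 5, was at 0% in all 6 samples at 72 to 119 reads. It had the most reads of the 37 Bdnf members outside islands without a methylated read.

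Downstream of the 5′ region, the first pair of CpGs lay 13619 and 13648 bp past placed start 5. CpG 109538373 had 74.4%, 60% and 83.3% in WT and 61.5%, 40.0% and 88.1% in Chd8+/-, from 10 to 42 reads per sample. The pair precedes start 6, which the table sets 14974 bp past start 5. The next 4 CpGs lay 29276 to 29511 bp past start 5, beyond start 7 (28512 bp in the table) and before the end of the gene (32634 bp). The 3 RefSeq distances are in GRCm38.p6, so the order of these CpGs, starts and gene end is inferred from distance and was not read from an mm39 annotation. CpG 109554236 was at 100% in all 5 covered samples, CpG 109554241 averaged 97.7%, and CpG 109554030 averaged 92.3% at 40 to 96 reads. CpG 109554265, the lowest of the 4, averaged 87.8%, with 82.1% in WT replicate 1, 57.1% in Chd8+/- replicate 1 and 100% in the other covered samples. WT replicate 3 was covered at 3 of the 6 downstream CpGs. Pooled over the 2 covered in all 6 samples, 109538373 and 109554030, WT was at 88.6%, 81.0% and 86.3% and Chd8+/- at 89.4%, 81.0% and 91.5% (exact two-sided permutation p = 0.5).

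At Nr3c1 the CpG island was close to free of methylation. Downstream of it the level was mixed up to 1672 bp, with CpG means of 5.70% to 28.2%, and then high. The island block, chr18:39621893-39623782, held 66 of the 81 members, 54 of them with no methylated read. Pooled over the 30 covered in all 6 samples, the WT samples had 0.633%, 1.11% and 0.438% and the Chd8+/- samples 0.743%, 0.674% and 0.0866% (exact two-sided permutation p = 0.6). In the densest part, 55 CpGs with more than 20 listed neighbours had 12 methylated of 5788 reads, or 0.207%, which is below the 0.316% to 0.348% read as unconverted outside CpGs. Clusters 4 (chr18:39622772-39622820, 7 CpGs) and 5 (chr18:39623193-39623416, 11 CpGs) had 1 methylated of 1209 reads and 2 of 1689 reads over all samples. Their mean levels fell at percentiles 2.08 and 2.74 of all 68428 autosomal clusters. The 7 Bdnf clusters fell between percentiles 10.4 and 19.7. By comparison, 22.2% of all clusters averaged under 2%. Cluster 3 (chr18:39621893-39622243, 11 CpGs), at the downstream edge of the block, averaged 1.12% ± 0.478 in WT and 0.791% ± 0.566 in Chd8+/- (SD, n = 3 each).

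Distances were measured from the lowest coordinate of the island block, in the direction of transcription. Inside the block, CpG 39621965 was at 0% in all 6 samples at 72 to 162 reads, and CpG 39622198 was above 0% only in Chd8+/- replicate 2, at 2.30%. At 341 and 363 bp the 2 CpGs had mean levels of 23.1% and 6.16%. Cluster 2 (chr18:39620221-39620496, 3 CpGs), at 1398 to 1672 bp, had 11.4%, 8.13% and 19.3% in WT and 12.1%, 8.46% and 4.52% in Chd8+/-. Cluster 1 (chr18:39619338-39619629, 5 CpGs), at 2265 to 2555 bp, had 71.3%, 77.0% and 82.8% in WT and 67.6%, 76.3% and 76.1% in Chd8+/-. The pair at 341 and 363 bp averaged 18.1% in WT and 11.1% in Chd8+/-, and the 3 CpGs of cluster 2, weighted equally, 17.7% and 11.1%, so the level did not rise between them. Cluster 1 was above cluster 2, and cluster 2 above cluster 3, in 6 of 6 samples. Cluster 1 was the only one of the 12 clusters at either gene with a mean over 60%, the range of 53.0% of all clusters. Exons of Nr3c1 in mm39 were not used here, so these CpGs are given by distance only.

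**Figure D2:**
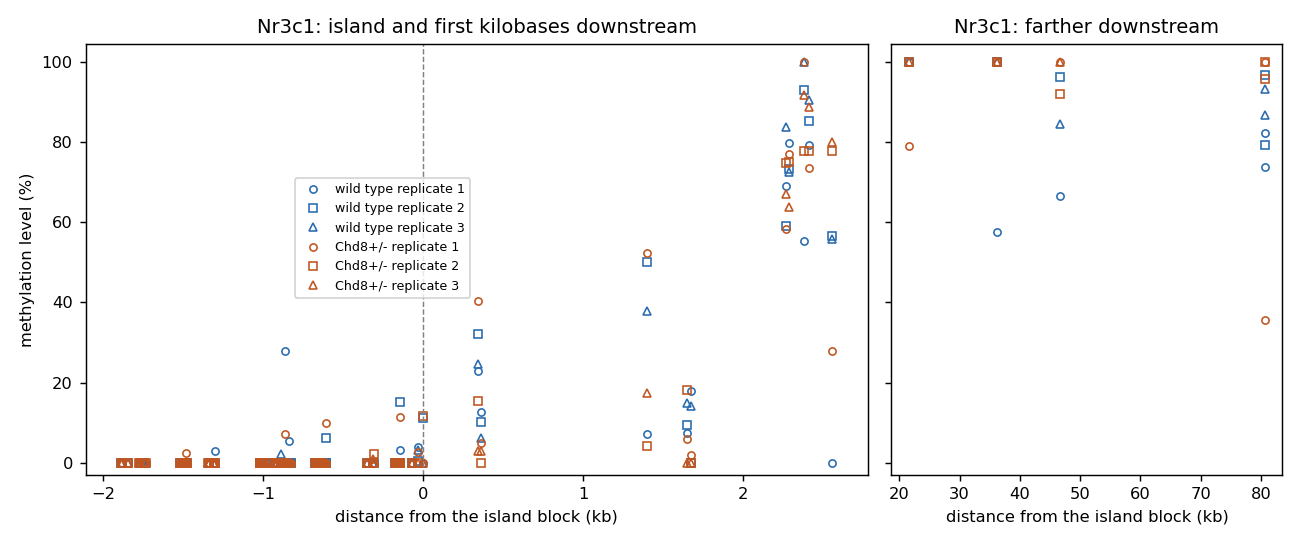
Methylation level (%) of each Nr3c1 CpG in each sample against the distance from the downstream edge of the island block (kb, positive in the direction of transcription). Most CpGs left of the dashed line lie at or near 0%, and most values beyond 2265 bp lie above 50%. The 3 CpGs at 1398 to 1672 bp are scattered, with means of 28.2%, 9.32% and 5.70%.

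The shore CpGs also differed among themselves and between samples. CpG 39620495, in cluster 2, had 7.14%, 50% and 37.8% in WT and 52.4%, 4.17% and 17.5% in Chd8+/-, at 16 to 56 reads. Its neighbour 39620221 had 18%, 0% and 14.3% in WT and 1.92%, 0% and 0% in Chd8+/-, the smallest p among the Nr3c1 CpGs. edgeR's quasi-likelihood test gave it an unadjusted p of 0.0587 and an adjusted p of 1.00. The 2 CpGs thus did not place the samples in the same order. CpG 39619338 read 0%, 56.5% and 55.8% in WT and 27.9%, 77.8% and 80% in Chd8+/-, with 10 to 43 reads. CpG 39619514 read 55.3%, 93.1% and 100% in WT and 100%, 77.8% and 91.7% in Chd8+/-. This last CpG had the largest spread of the Nr3c1 members relative to read counting, 3.27 times the standard deviation that its read counts alone would give. WT replicate 1 was the lowest sample at both, but the highest at 39619604, with 79.7%. The other CpGs of that cluster varied less. CpG 39619482 ranged from 73.6% to 90.6% at 129 to 190 reads, 39619604 from 63.9% to 79.7% and 39619628 from 58.3% to 83.8%. CpGs 39620495 and 39619338 were not among those named by rule.

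Farther into the interval, 5 CpGs at 21637 to 80632 bp from the island block were highly methylated. CpG 39600256 averaged 95.8%, with all covered samples at 100% except Chd8+/- replicate 1 at 78.9%. CpG 39585617 was at 100% in 5 samples and at 57.6% in WT replicate 1. CpG 39541261 averaged 91.0%. CpG 39541277, the lowest of the 5, averaged 77.7%, with 35.7% in Chd8+/- replicate 1 and 73.7% to 96.9% in the other covered samples. Chd8+/- replicate 3 was covered at 3 of the 5. Pooled over the 2 covered in all 6 samples, 39575206 and 39585617, WT was at 61.1%, 98.3% and 94.2% and Chd8+/- at 100%, 96.7% and 100%, from 41 to 69 reads per sample (exact two-sided permutation p = 0.2). WT replicate 1 was the lowest sample over these 2 CpGs, but Chd8+/- replicate 1 was the lowest at CpGs 39541277 and 39600256.

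The comparison of Chd8+/- with WT asked whether either gene's methylation differed with the genotype. Of 609673 autosomal CpGs tested with edgeR's quasi-likelihood test, 0 passed a Benjamini-Hochberg adjusted p of 0.05 (0% called), and 3.02% had an unadjusted p under 0.05. CpGs at 0% or at 100% in every covered sample could not be tested, which left 61 Bdnf and 27 Nr3c1 CpGs. At Bdnf 0 of 61 were called. Unadjusted, 2 were higher and 3 lower in Chd8+/-, or 8.20%, where the genome-wide shares were 1.75% higher and 1.27% lower. The 2 higher CpGs are neighbours, both above 0% only in Chd8+/- replicate 1. They may share reads, so the 8.20% is not a share of independent CpGs. At Nr3c1 0 of 27 were called and 0 had an unadjusted p under 0.05. limma called 0 CpGs at either gene, with 2 of 53 Bdnf CpGs lower and 0 of 20 Nr3c1 CpGs at an unadjusted p under 0.05.

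The 5 Bdnf CpGs lay on both sides of the long gap. CpG 109524962, 208 bp past start 5, had 1.49%, 1.76% and 0.289% in WT and 0% in each Chd8+/- sample, at 262 to 366 reads. The difference was -1.18 points, with an unadjusted p of 0.000171 and an adjusted p of 0.800 by edgeR. CpG 109526015, the last CpG of the 5′ region, had 6.09%, 2.83% and 19.1% in WT and 3.27%, 0% and 0.518% in Chd8+/-. Its p was 0.00527, with an adjusted p of 1.00 by edgeR. WT replicate 3 carried most of that difference, and the CpG had the largest spread of the Bdnf members, 4.14 times that of read counting. CpG 109508166 was at 0% in all samples except Chd8+/- replicate 1, at 2.25%. CpGs 109508184 and 109524415, named after their values were seen, had p-values of 0.0261 and 0.0353 by edgeR (adjusted p = 1.00 for each). The first was above 0% only in Chd8+/- replicate 1, at 2.21%, and the second only in WT replicates 1 and 2, at 4.32% and 1.72%.

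Among 67131 clusters tested, edgeR called 0, and 3.69% had an unadjusted p under 0.05 (2.05% higher and 1.64% lower in Chd8+/-). None of the 7 Bdnf and 5 Nr3c1 clusters was called or had an unadjusted p under 0.05 by edgeR or by limma. The smallest edgeR p was 0.0819 at Bdnf and 0.347 at Nr3c1. WT and Chd8+/- values overlapped in all 12 clusters, where 9.27% of all clusters did not overlap. The largest difference was at Nr3c1 cluster 2, -4.60 points (SE 3.98). It was -14.8 points between the replicate 3 libraries, with the higher chromosome X share, and 0.509 points among the other 4, so its direction was not shared by the 2 classes of library.

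**Figure D3:**
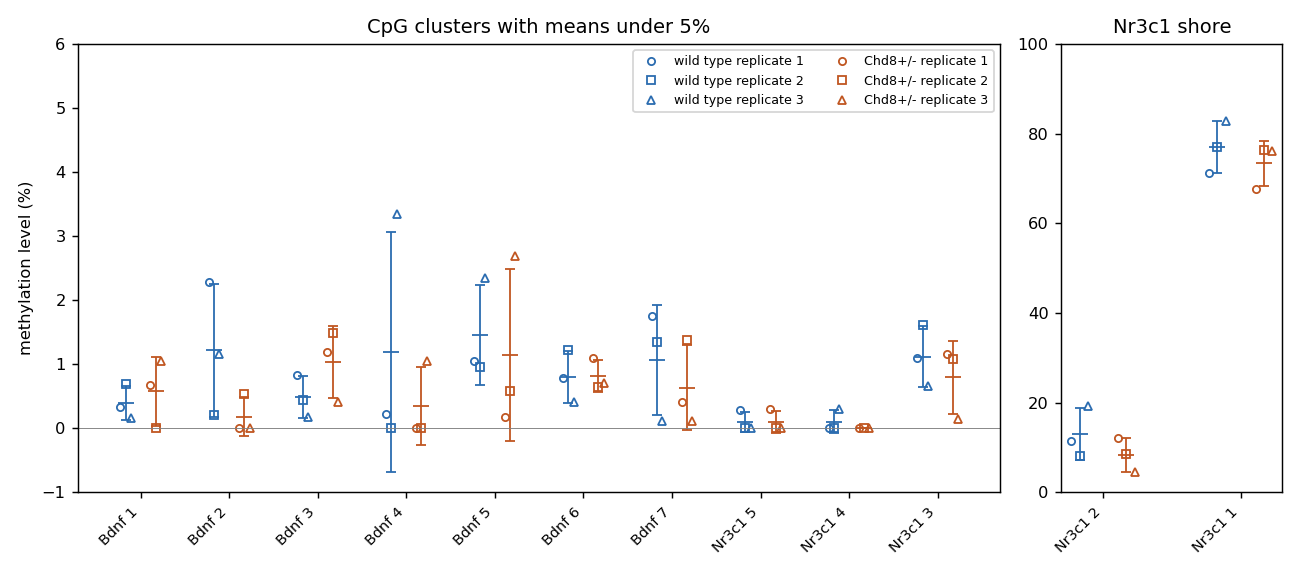
Methylation level (%) of the 7 Bdnf and 5 Nr3c1 clusters, with 1 symbol per sample and bars for mean ± SD (n = 3 per genotype); clusters with means under 5% are on the left panel and the 2 Nr3c1 shore clusters on the right, each with its own scale. In each cluster the ranges of the WT and Chd8+/- samples overlap.

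Mean levels per gene were compared over CpGs covered in all 6 samples. Over 103 Bdnf CpGs the WT samples averaged 2.47%, 2.05% and 2.66% and the Chd8+/- samples 2.24%, 2.46% and 2.62%, a difference of 0.0440 points (SE 0.212, exact two-sided permutation p = 1.0). Over all members, with each sample averaged over its covered CpGs, it was 0.595 points. The CpGs averaged then differ between samples. WT replicate 3 was covered at 3 of the highly methylated downstream CpGs and each other sample at 5 or 6. The 0.595 points are therefore not a difference over the same CpGs. Over 33 island CpGs of Bdnf WT averaged 0.504% ± 0.155 and Chd8+/- 1.10% ± 0.627 (SD, n = 3 each, exact permutation p = 0.3). The Chd8+/- samples had 1.45%, 1.48% and 0.379%. In replicate 1, CpG 109524231 alone added 1.24 points to the mean, and in replicate 2 CpG 109524355 alone added 1.38 points, with the other 32 island CpGs adding the rest. With a minimum of 20 reads the island difference turned from 0.599 to -0.571 points. Over the other 70 Bdnf CpGs the difference was -0.218 points (SE 0.442, exact permutation p = 0.7). Over 42 Nr3c1 CpGs WT had 11.6%, 16.5% and 16.4% and Chd8+/- had 15.7%, 14.9% and 14.7% (exact permutation p = 1.0). WT replicate 1 stood below the other samples, and without it the difference turned from 0.265 to -1.37 points. Over all Nr3c1 members, again with each sample averaged over its own covered CpGs, it was 0.741 points. Weighted by reads over the 42 CpGs it was 1.59. Over the 23 CpGs outside the island WT averaged 27.0% ± 5.21 and Chd8+/- 27.5% ± 0.920 (SD, n = 3 each, exact permutation p = 1.0). The 19 Nr3c1 island CpGs had means of 0.0881% ± 0.0796 and 0.0428% ± 0.0741 (SD, n = 3 each, exact permutation p = 0.7). All 6 p-values were 1 after adjustment over these 6 comparisons.

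High values in a single sample occurred at CpGs that were otherwise near 0%. Among CpGs with a mean under 10%, 4 of 120 at Bdnf (3.33%) and 1 of 69 at Nr3c1 (1.45%) had a sample at 20% or more, against 6.06% of 346100 autosomal CpGs. CpG 109524355, 399 bp before start 5, read 5 of 11 (45.5%, 95% Wilson interval 21.3% to 72.0%) in Chd8+/- replicate 2. CpG 109524231, 523 bp before it, read 9 of 22 (40.9%, interval 23.3% to 61.3%) in Chd8+/- replicate 1. Both were at 0% in every other covered sample. CpG 109508133 read 12 of 45 in Chd8+/- replicate 2, and CpG 109522845 read 9 of 42 in WT replicate 3. CpG 39622757, in the Nr3c1 island, read 5 of 18 in WT replicate 1. In each of the 5 cases all reads of that sample came from 1 strand of the CpG, so the other strand gave no second reading. CpGs 109524355 and 109524231 lie in an island and were covered in all 6 samples, and their shares of the Bdnf island means are given above.

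Spread was also set against read counting, as the ratio of the standard deviation within genotypes to that of read counting. CpGs at 0% or 100% throughout were left out. The median ratio was 1.06 over 17 Bdnf island CpGs and 1.76 over 44 outside islands. At Nr3c1 it was 0.744 over 7 island CpGs and 2.03 over 20 others. Those 7 held 12 methylated reads in all, and most had a single one. With 1 methylated read the ratio is set by read depth, so the Nr3c1 contrast cannot show less variation in islands. The Bdnf contrast has the same limit in part. Its 17 island CpGs held 85 methylated reads, and 109507971, 109524052 and 109524085 had 1 each. For CpGs covered in all 6 samples, the median ratio was 1.59 over 53 Bdnf CpGs. It was 1.96 over 20 Nr3c1 CpGs and 1.97 over 418119 autosomal CpGs. These sets were not matched for methylation level or depth.

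Promoters of other genes in the same pathways were placed by CpG spacing in the same way. Of 16 neurotrophin genes 7 had a promoter sequence in the table, 4 were placed with at least 9 matched CpGs, and 3 had enough CpGs covered in all 6 samples to give a level. Ntrk2, which encodes the BDNF receptor TrkB, averaged 0.608% ± 1.05 in WT and 0% in Chd8+/-. Ngfr, which encodes the p75 neurotrophin receptor, was at 0% in all 6 samples. Creb1, which encodes the transcription factor CREB, averaged 1.69% ± 1.71 and 0.529% ± 0.916 (SD, n = 3 each). Of 19 genes of glucocorticoid signalling 13 had a sequence, 7 were placed and 3 were measured. Nr3c2, which encodes the mineralocorticoid receptor, averaged 0.972% ± 0.847 in WT and 1.13% ± 1.31 in Chd8+/-. Crhr1, which encodes a receptor of corticotropin-releasing hormone, averaged 1.30% ± 1.06 and 0.549% ± 0.586. Pomc, which encodes the precursor of corticotropin, had 0%, 0% and 23.1% in WT and 20%, 12.3% and 18.3% in Chd8+/-. WT replicate 3 lay above all Chd8+/- samples there. Ngfr, at 0% throughout, could not be tested. In the other 5 promoters 0 clusters were called by edgeR in either direction, and 0 had an unadjusted p under 0.05.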

How the data were processed

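RRBS of 6 neocortex samples (3 WT, 3 Chd8+/-) was analysed. Per the submitters' processing notes, Trim Galore 0.4.4, Bismark 0.20.0, SAMtools 1.9 and build mm39 were used; their settings are not given in the sources used here. The deposited tables give coverage as a count of reads per cytosine and methylation as percent, and list no cytosine under 10 reads. The authors' conversion statistics gave the bisulfite conversion rate as percent. Methylated reads were coverage times percent, whole within 0.02 for over 99.9% of cytosines. Strands were added. Median coverage per cytosine was 20 to 24 reads, and limits and intervals cover counting error only, since molecular identifiers are not mentioned.

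edgeR 4.0.16 (quasi-likelihood, a coverage term per sample) in R 4.3.3 was fitted to all autosomal CpGs and clusters, with Benjamini-Hochberg adjustment over all of them, and was tested on simulated data. limma 3.58.1 was fitted to log2 of (methylated + 1)/(unmethylated + 1). Means were compared by exact permutation with scipy 1.17.1. The limit of a share at 0 is 3 reads of the total, with reads summed over CpGs and taken as independent. Single CpGs were named by smallest p (3 per gene), highest (3) and lowest (1) level outside islands and largest spread. The members and lists were chosen with earlier results of these data known. Pathway promoters were placed by CpG spacing, chosen after seeing the data, since the gene tables follow GRCm38.p6; genes of like promoter level were not sought. Alternatives were another read minimum, coverage rule, weighting, island or cluster definition, strands apart, a coverage ceiling, the replicate block, library classes and leaving out each sample.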

Additional observations from a re-analysis of the deposited data

How the results depend on the processing

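Calls at both genes stayed at 0 CpGs and 0 clusters under every alternative run, including limma and each sample left out. Over all autosomal CpGs, 1 CpG outside both intervals was called without Chd8+/- replicate 1 and 1 without Chd8+/- replicate 3 (adjusted p = 0.0301 and 0.0377). The smallest unadjusted p among Bdnf clusters was 0.00789, with a minimum of 20 reads, and in leave-one-out fits 0.0242, without WT replicate 2 (each adjusted to 1.00 by edgeR).

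The difference at Nr3c1 island CpGs (-0.0454 points, from -0.644 to 0) did not reverse in any alternative. This does not show a stable direction. Of the 19 CpGs, only 39622781, 39623193 and 39623373 had a methylated read, 1 each, in WT replicate 3, WT replicate 1 and Chd8+/- replicate 1. The value of 0 came with a minimum of 20 reads, and -0.644 after subtracting the autosomal mean. Cluster differences were recomputed with each sample left out and in the libraries of lower X share. Under these, Bdnf clusters 2, 3 and 7 and Nr3c1 clusters 1 and 4 did not reverse. Between the libraries of higher X share, Bdnf cluster 7 was at 0.00676 points, against -0.434 over all samples. Nr3c1 cluster 4 had 1 methylated read, in WT replicate 3, so its difference could not reverse. The other differences reversed in at least 1 alternative. For Bdnf the difference was -0.124 points with 20 reads, -0.472 weighted by reads, -0.555 after subtracting the autosomal mean and -0.0429 in the libraries of higher X share, and -0.129 to 0.177 with each sample left out (negative without WT replicate 2 or Chd8+/- replicate 3). For its island CpGs it was -0.571, -0.0334 and -0.000157 under the first 3 of these, and for its other CpGs 0.564 with at least 2 covered samples per genotype and -0.521 to 0.0146 with each sample left out. For Nr3c1 it was -2.03 with 20 reads, -0.334 after subtracting the autosomal mean, -1.79 in the libraries of higher X share and -1.37 to 1.09 with each sample left out (negative without WT replicate 1 or Chd8+/- replicate 1). For its CpGs outside islands the corresponding values were -2.30, -0.0775, -3.17 and -2.48 to 2.06, and -0.528 with at least 2 covered samples. Differences under that coverage rule average each sample over its own covered CpGs, so they also reflect which CpGs each sample covered. Among clusters, the libraries of lower X share gave -0.177 and -0.138 points at Bdnf clusters 1 and 6 and 0.509 at Nr3c1 cluster 2. With each sample left out, Bdnf clusters 1, 4, 5 and 6 ranged from -0.0618 to 0.465, -1.43 to 0.239, -1.07 to 0.181 and -0.192 to 0.215, and Nr3c1 clusters 3 and 5 from -0.557 to 0.000709 and -0.0923 to 0.0975. The cause was not tested.

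Whether replicate numbers pair the samples could not be decided. Deviations of same-numbered samples correlated at 0.00456, 0.000833 and 0.00233, and those of differently numbered samples at -0.00662 to 0.00421. Read-counting error lowers such correlations, so values near 0 cannot exclude pairing. Replicate 3 of both genotypes had the higher X share. With the replicate number as a block the calls were 0 CpGs and 0 clusters, and the paired exact test cannot go below 0.25. Depth limits what can be seen near 0%, and the promoter of the first Bdnf start had no reads listed in 2 Chd8+/- samples.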
